A study of Homo sapiens with 33 samples.

Results

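The cytosolic ribosomal protein (RP) genes encode the proteins of the large and the small subunit of the ribosome that translates nuclear-encoded messenger RNA. They were taken here as every gene of the expression matrix whose symbol is RPL or RPS followed by digits and an optional A or X, together with RPLP0, RPLP1 and RPLP2, so that pseudogenes were left out. This rule used names only and found 76 of 58302 genes, 46 of the large and 30 of the small subunit. The 76 members lie on 21 chromosomes, and all of them passed the filter on low values: the lowest value of any member in any library was 530 on the deposited scale of CP20M, counts scaled to 20000000 reads in each library.

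RNA-seq libraries were made from 6 established cell lines. H2052, H2452, H28 and MSTO-211H are malignant pleural mesothelioma (MPM) lines sensitive to palbociclib, an inhibitor of the cell cycle kinases CDK4 and CDK6. The 2 resistant lines were MPP89, derived from MPM and carrying an RB1 mutation, and MeT-5A, which consists of mesothelial cells immortalized with SV40. Cells received 1 µM palbociclib or 0.1% DMSO for 9 days (H2052 experiment 1, experiments 1 and 2 of H2452, H28 and MSTO-211H, and all experiments of MPP89 and MeT-5A) or for 10 days (H2052 experiment 2 and experiment 3 of the other sensitive lines). In the 10-day experiments, a further culture was freed of palbociclib for 48 h after its 10 days (washout). This gave 11 pairs of palbociclib and DMSO libraries of sensitive lines, 3 resistant pairs (2 from MPP89, 1 from MeT-5A), 4 washout libraries and 1 untreated MeT-5A library, 33 in all. Each line is a single culture line, and nothing in the labels says how the experiments of a line differ beyond their number and day, so that p-values measure the spread between these experiments.

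Most RP genes are needed in equal numbers, since a ribosome holds a fixed set of proteins. They are among the most strongly transcribed genes of growing cells, and their messenger RNAs typically begin with a C followed by a run of pyrimidines, the terminal oligopyrimidine (TOP) motif, through which their translation is tied to growth signals. RPL5 and RPL11 also form a particle with 5S ribosomal RNA that can bind MDM2 when ribosome assembly is disturbed.

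The TOP start can be seen in the reference sequence at the annotated transcription starts. Of the 76 members, 61 had an entry in the RefSeq promoter table (GRCh38.p14). A C at the first transcribed base followed by 4 bases that are each C or T, read on the transcribed strand only, was found at 1 or more annotated starts of 45 of these 61 genes, and at 45 of their 76 entries (59.2%), against 1429 of 35116 entries (4.07%) over all genes of the table. With palbociclib in the sensitive lines, the median change of the 45 genes was -0.39 on the log2 scale and that of the other 16 was -0.42. The rule reads only the annotated first bases. Among the other 16, RPL9 and RPL10A have a run of pyrimidines a few bases further on. The split therefore does not separate genes with the motif from genes without it, and a link of the change to the motif was not tested. The windows below are those of the most and the least lowered members with an entry, from the 5 lowest and 5 highest described further on, with RPS13 and RPS6 added from among the lowest. Each spans 15 bases before and 15 bases from the annotated start, 5′ to 3′, and the capitals mark the run of pyrimidines that opens the transcript.
RPS3A (chr4:151099613-151099642, + strand): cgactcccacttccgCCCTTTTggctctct
RPS7 (chr2:3575245-3575274, + strand): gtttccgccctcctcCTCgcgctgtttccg
RPL9 (chr4:39458908-39458937, - strand): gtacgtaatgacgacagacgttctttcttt
RPS13 (chr11:17077653-17077682, - strand): ttccactctcgctctCCTTTCgttgcctga
RPS6 (chr9:19380222-19380251, - strand): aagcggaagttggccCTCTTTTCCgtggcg
RPL41 (chr12:56116618-56116647, + strand): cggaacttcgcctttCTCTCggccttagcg
RPL28 (chr19:55385917-55385946, + strand): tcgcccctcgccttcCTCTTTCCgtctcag
RPL22 (chr1:6199581-6199610, - strand): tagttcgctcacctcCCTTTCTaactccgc
RPLP1 (chr15:69452803-69452832, + strand): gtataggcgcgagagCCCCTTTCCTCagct
RPS26 (chr12:56041903-56041932, + strand): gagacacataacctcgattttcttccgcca
Long pyrimidine runs stand at the start of both the strongly lowered RPS3A and RPS6 and the little changed RPLP1 and RPL28. RPL9 and RPS26, near the opposite ends of the order, have no pyrimidine at the annotated first base, although pyrimidines follow within the window. These letters describe the annotated start in the reference and were not read from the libraries.

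Values are given as CP20M, which the authors computed from HTSeq gene counts and rounded up. The libraries therefore have nearly the same total (20007662 to 20021400), and their depth cannot be read from it. The whole numbers that low values skip gave a depth of 12770000 to 18690000 counted reads for 20 libraries, while the other 13 skipped too few; at the lowest depth 1 read was worth 1.57 CP20M, far below any value of an RP gene. CP20M is a share of a library, so that fewer RP transcripts per cell and more RNA of other genes cannot be told apart, nor can a change in every cell and a change in some cells. RP genes have many near-identical processed pseudogenes. Reads that fit several places can be lost or misplaced in counting, which makes a comparison of levels between members uncertain. Whether this loss was equal in both libraries of a pair was not tested. Of the mesothelial markers, VIM, KRT8 and KRT18 were present in all libraries (at least 1497 CP20M), and MSLN, CALB2 and WT1 ranged from at most 1 to 6853, 1577 and 591 CP20M. Of 8 markers of other cell types, CD68 reached 1844 CP20M, PECAM1 120 and EPCAM 88, and none of the other 5 passed 42.

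The first question was whether the RP genes take a different share of the transcriptome when the cells are treated. In the sensitive lines, the 76 members made up 2.70% ± 0.739 of the DMSO libraries (SD, n = 11; 1.87% to 4.46%) and 2.04% ± 0.549 of the palbociclib libraries (n = 11; 1.51% to 3.32%). The groups overlapped, but the share was lower with palbociclib in each of the 11 pairs. It fell from 2.32% to 1.78% and from 2.83% to 1.53% in H2052 experiments 1 and 2. In H2452 it fell from 1.87% to 1.75%, from 2.09% to 1.95% and from 2.18% to 1.51%. In H28 it fell from 2.29% to 1.83%, from 2.84% to 2.61% and from 2.52% to 1.64%. In MSTO-211H it fell from 2.78% to 2.06%, from 4.46% to 3.32% and from 3.51% to 2.42%. As a part of the DMSO value, the loss within each line was largest in its last experiment, treated for 10 days (46.0%, 30.7%, 34.9% and 30.8% in the same order); in MSTO-211H, experiments 1 and 2 lost 25.9% and 25.5%. The DMSO library of MSTO-211H experiment 2 stood apart with the highest share of all 33, and without its pair the means were 2.52% for DMSO and 1.91% for palbociclib. In the resistant lines, the share was 2.07% ± 0.192 with DMSO and 2.02% ± 0.191 with palbociclib (n = 3), 1.85% and 1.81% and then 2.19% and 2.17% in MPP89, and 2.17% and 2.10% in MeT-5A. These drops of 0.972% to 3.37% of the DMSO value were smaller than those of every sensitive pair (6.41% to 46.0%).

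**Figure D1:**
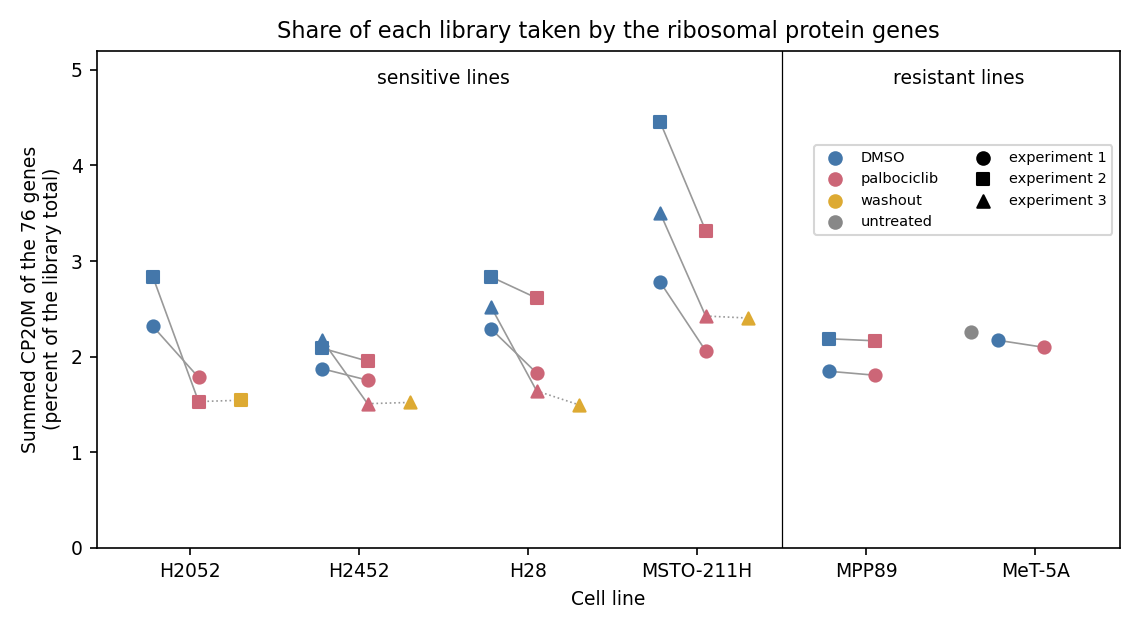
Summed CP20M of the 76 ribosomal protein genes in percent of the library total (vertical axis), by cell line; each point is 1 library, colour gives the treatment, shape the experiment, and lines join the libraries of an experiment. Every sensitive pair slopes downward, the washout points stay near the palbociclib points, and the resistant pairs are nearly level.

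Gene by gene, the 76 members were lower with palbociclib over the 11 sensitive pairs. The median log2 fold change of the members was -0.41, against -0.11 over the 17803 genes tested. By limma with the experiment as a block, 73 members fell at a Benjamini-Hochberg FDR under 0.05 and none rose. At the same FDR, 33.7% of all genes were called lower and 14.6% higher. All 76 fitted changes were below 0, as were 62.4% of those of all genes, and 75 members were lower at an unadjusted p under 0.05 (37.7% of all genes), RPS26 being the exception. With a fold change above 1.5 required as well, 9 members were called, which is 11.8% of them, near the 9.37% of all genes. That count was 14 or 15 without H2452 experiment 1 or 2, 5 without H2052 experiment 2 or H28 experiment 3, 4 without the line H2052 and 19 without H2452, with 8.21% to 11.6% of all genes over the fits without a pair or line. Counted by pair, 46 members were lower in all 11 pairs, 14 in 10, 12 in 9, 2 in 8 and 2 (RPS26 and RPL22) in 7 pairs. In single pairs, 50.7% to 67.7% of all genes were lower, and a tally by number of pairs is not given for all genes. The size differed by experiment. Over 1.5-fold lower were 68 members in H2052 experiment 2 (24.4% of all genes) and 0 in H2452 experiment 1 (14.2%). Levels here are relative to the library total. Under median-of-ratios scaling, the median of all genes moved from -0.11 to 0.06 and that of the members from -0.41 to -0.21. The calls over all genes changed from 6001 lower and 2603 higher to 3052 lower and 4861 higher. With that scaling, 43 members were called lower (17.1% of all genes) and 0 higher (27.3%), and 70 of the 76 were below 0. With line means as units, 40 members were called lower (11.9% of all genes). The distance of the members from the median of all genes was -0.29 with the deposited scaling, -0.27 with median-of-ratios and -0.28 with upper-quartile scaling.

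Of the 5 members with the strongest decrease, 3 belong to the small and 2 to the large subunit. RPS3A, a protein of the small subunit near the site where the messenger leaves, ranged from 3581 to 12129 CP20M in the 11 DMSO libraries (median 4798) and from 1540 to 7850 with palbociclib (median 2919). Its log2 fold change was -0.83 ± 0.131 (SE; limma, adjusted p = 0.000223), and it was lower in 11 of 11 pairs. RPS15A fell by 0.76 on the log2 scale (adjusted p = 5.63e-05), from a median of 3740 to 2039 CP20M. RPS7, which takes part in maturation of the small subunit and can bind MDM2, fell by 0.74 ± 0.0971 (adjusted p = 5.32e-05). Its values went from 3694 to 9723 CP20M with DMSO (median 6412) and from 1726 to 6573 with palbociclib (median 3542). RPL9, a protein of the large subunit, fell by 0.68 (adjusted p = 0.00015), from a median of 6016 to 4342 CP20M. These genes were lower in all 11 pairs, while their DMSO and palbociclib ranges over all lines overlapped.

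The members of this paragraph were picked for a known role, and no test compared them with each other or with the rest. RPL5, which carries 5S ribosomal RNA, was at 5690 to 11065 CP20M with DMSO (median 7763) and at 2955 to 8872 with palbociclib (median 4786), a decrease of 0.66 ± 0.0925 on the log2 scale (adjusted p = 9.26e-05, 11 of 11 pairs). Its partner RPL11 fell by only 0.23 ± 0.0766 (adjusted p = 0.0224, 9 of 11 pairs), a call lost under 10 of 27 alternatives, among them median-of-ratios scaling (-0.04, adjusted p = 0.696) and the fits without H2052 experiment 2 or MSTO-211H experiment 3. In H2452 experiment 3 it was higher with palbociclib (3521 against 3051 CP20M). RPS6, the ribosomal protein phosphorylated by S6 kinases, fell by 0.61 (adjusted p = 0.00028, 11 of 11 pairs), from a median of 8188 to 5315 CP20M. RPS19 and RPS14, whose loss on one allele causes inherited or acquired anaemia, fell by 0.49 (adjusted p = 0.000489) and 0.47 (adjusted p = 0.000798). RPL3 and RPL10, which lie near the catalytic centre, fell by 0.47 (adjusted p = 0.00239) and 0.41 (adjusted p = 0.000811), and RPL10A by 0.53 (adjusted p = 0.00135). RPL39 and RPL36A fell by 0.39 (adjusted p = 0.00352) and 0.37 (adjusted p = 0.00206), the X-linked RPS4X by 0.41 (adjusted p = 0.000712), and RPS27 by 0.34 (adjusted p = 0.00734). The call of RPS27 was lost under 7 of 27 alternatives (adjusted p up to 0.203), those of RPL3 and RPL39 under 2 and those of RPL10 and RPL36A under 1.

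Of the proteins of the stalk, the flexible arm that recruits translation factors, RPLP0, its base, fell by 0.38 ± 0.0797 (adjusted p = 0.00161), close to the median of all members, and RPLP2 by 0.25 ± 0.061 (adjusted p = 0.00433). RPLP1 had a log2 fold change of -0.15 ± 0.0623 (adjusted p = 0.0543) and did not pass, with a median of 9350 CP20M with DMSO and 8553 with palbociclib. The other members with the smallest change were RPS26 at -0.09 ± 0.0947 (adjusted p = 0.47), RPL22 at -0.17 ± 0.0728 (adjusted p = 0.0722), RPL28 at -0.17 ± 0.0639 (adjusted p = 0.0409) and RPL41, the shortest of the ribosomal proteins, at -0.19 ± 0.0641 (adjusted p = 0.0279). The calls of RPL28 and RPL41 were lost under 18 and 13 of 27 alternatives, and those of RPLP0 and RPLP2 under 3 and 4. RPS26, RPL22, RPL28, RPL41 and RPLP1 were above 0 with median-of-ratios scaling, and RPS26 also with upper-quartile scaling, while RPS3A, RPS15A, RPS7, RPL9, RPL5 and RPS6 stayed below 0 at an adjusted p of at most 0.0207 under each of the 27 alternatives run. As a description, the median over small subunit members was -0.50 (29 of 30 called lower) and over large subunit members -0.37 (44 of 46 called lower).

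**Figure D2:**
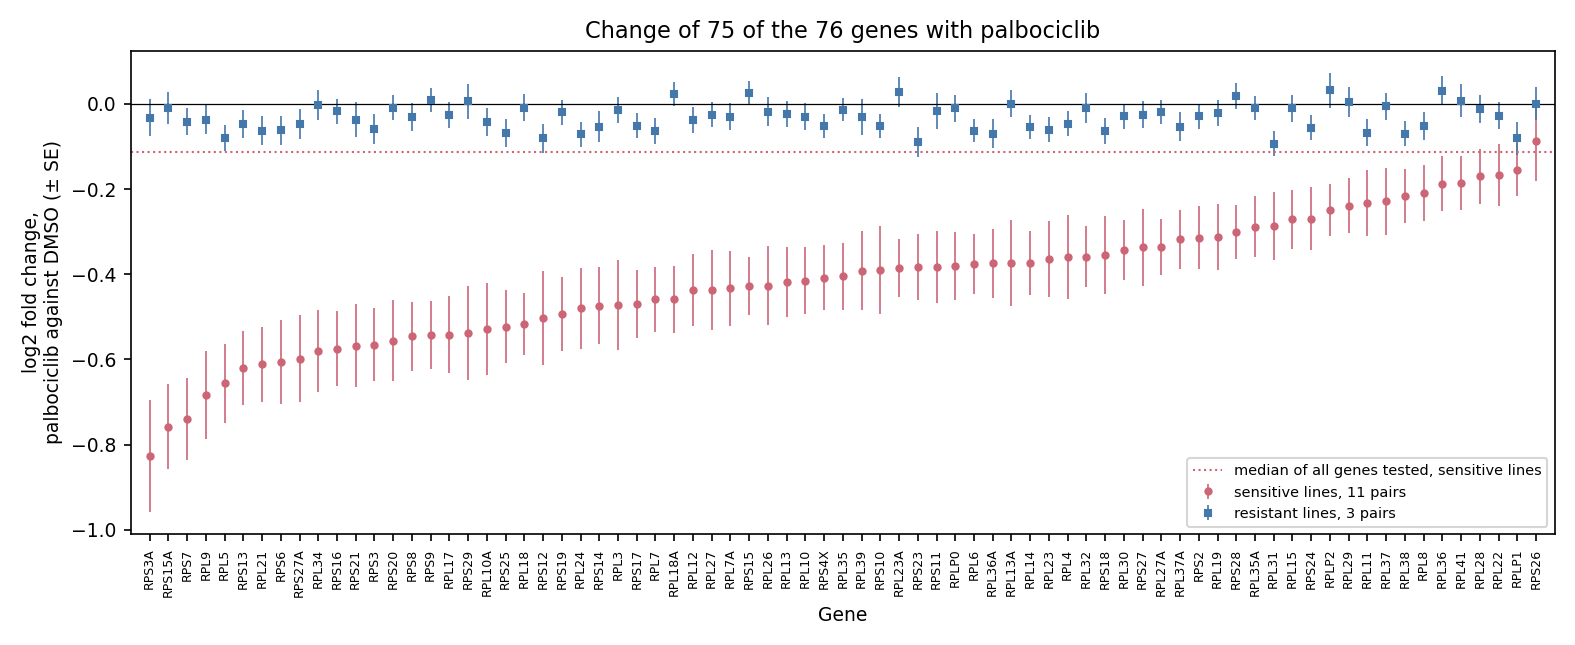
Log2 fold change of 75 of the 76 genes with palbociclib (vertical axis, ± SE), ordered by the value over the 11 sensitive pairs, which are shown as circles; squares are the 3 resistant pairs and the dotted line is the median of all genes tested in the sensitive lines. The circles run from -0.83 for RPS3A to -0.09 for RPS26, and the squares lie between -0.09 and 0.03.

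Transcript length, signal from short genes and mitochondrial transcripts were recorded beside this shift. RP transcripts are short, with a median annotated length of 781 nt (canonical transcript, GENCODE 44). The 213 other protein-coding genes shorter than 1000 nt with a mean above 1000 CP20M had a mean of pair medians of -0.15 ± 0.141 (SD, n = 11 sensitive pairs), against -0.41 ± 0.251 for the RP genes and -0.10 ± 0.0771 for the 13094 longer genes. The RP median was below that of the short genes in 10 of 11 pairs; in H2452 experiment 2 it was above it by 0.0958. Across the 76 members, length and log2 fold change had a Spearman rho of 0.282, which is a description over genes that share libraries. The 13 mitochondrially encoded transcripts rose in the sensitive lines with palbociclib (13 of 13 called higher, 14.6% of all genes), with a median of 0.83. They made up 0.33% to 0.967% of the DMSO libraries and 0.363% to 1.88% of the palbociclib libraries. The rise was uneven by pair: MT-ATP6 was at 2.81 in H2452 experiment 3 and at -0.38 in MSTO-211H experiment 1. The part of length and of mitochondrial RNA in the lower RP values was not tested.

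The size of the shift differed between lines and experiments. The members had medians of -0.65 in H2052 and -0.43 in MSTO-211H, and of -0.38 in H28 and -0.25 in H2452, on the log2 scale. These medians moved with single pairs. H2452 was at -0.08 without its experiment 3, with all genes at -0.10, and H28 at -0.23 without its experiment 3. H2052 was at -0.43 without experiment 2 and at -0.89 without experiment 1. With median-of-ratios scaling the medians were -0.331 in H2052, -0.255 in MSTO-211H, -0.241 in H28 and -0.0452 in H2452. Fitted by line with 2 or 3 pairs, 10 members fell in H2052 (15.1% of all genes were called lower), 1 in H2452 (21.7%) and 8 in H28 (11.4%). MSTO-211H had 34 (9.98%). None was called higher in these fits, against 5.57%, 10.9%, 8.30% and 7.11% of all genes in the same order. The call in H2452 was RPS7 at -0.80 (adjusted p = 0.049). When all lines shared a single estimate of the spread, the counts were 70 (33.1%), 16 (25.9%), 44 (22.1%) and 60 (30.0%), and RPS26 was called higher in MSTO-211H (0.31, adjusted p = 0.0205; 18.7% of all genes). H2452 was thus the sensitive line whose share of called RP genes was below that of all genes in both fits. Leaving out any single pair of H2452, H28 or MSTO-211H left 0 members called in that line, but in 8 of these 9 fits 0 of all genes were called too (H2452 without experiment 2 had 1103 lower and 583 higher).

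Among the 4 sensitive lines, an F test of limma called 3 members whose response differed (3.95%, against 37.1% of all genes; 14 members at an unadjusted p under 0.05, against 49.8%). That count was 12 without H2452 experiment 3, 10 without H2052 experiment 1, 8 without H28 experiment 3, 6 without H28 experiment 2 and 1 without H28 experiment 1, with 25.8% to 38.7% of all genes over the fits without a pair. RPS26, a protein at the channel where the messenger leaves the ribosome, was one of the 3 (adjusted p = 0.0131). In MSTO-211H it was at 1077, 1137 and 1224 CP20M with DMSO and at 1402, 1443 and 1426 with palbociclib, with no overlap (log2 fold change 0.31, adjusted p = 0.066 in that line alone). In H2052 it went from 1238 and 1144 to 1042 and 703 CP20M, and in H28 from 1300, 1360 and 1157 to 1048, 1330 and 818. In H2452 the values were 1544, 1488 and 1449 with DMSO and 1446, 1411 and 1507 with palbociclib. RPL4 (adjusted p = 0.0193) was at -0.71 in MSTO-211H and -0.62 in H2052 but at -0.06 in H28 and -0.15 in H2452. RPS12 (adjusted p = 0.0339) was at -1.08 in H2052 and -0.14 in H2452.

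**Figure D3:**
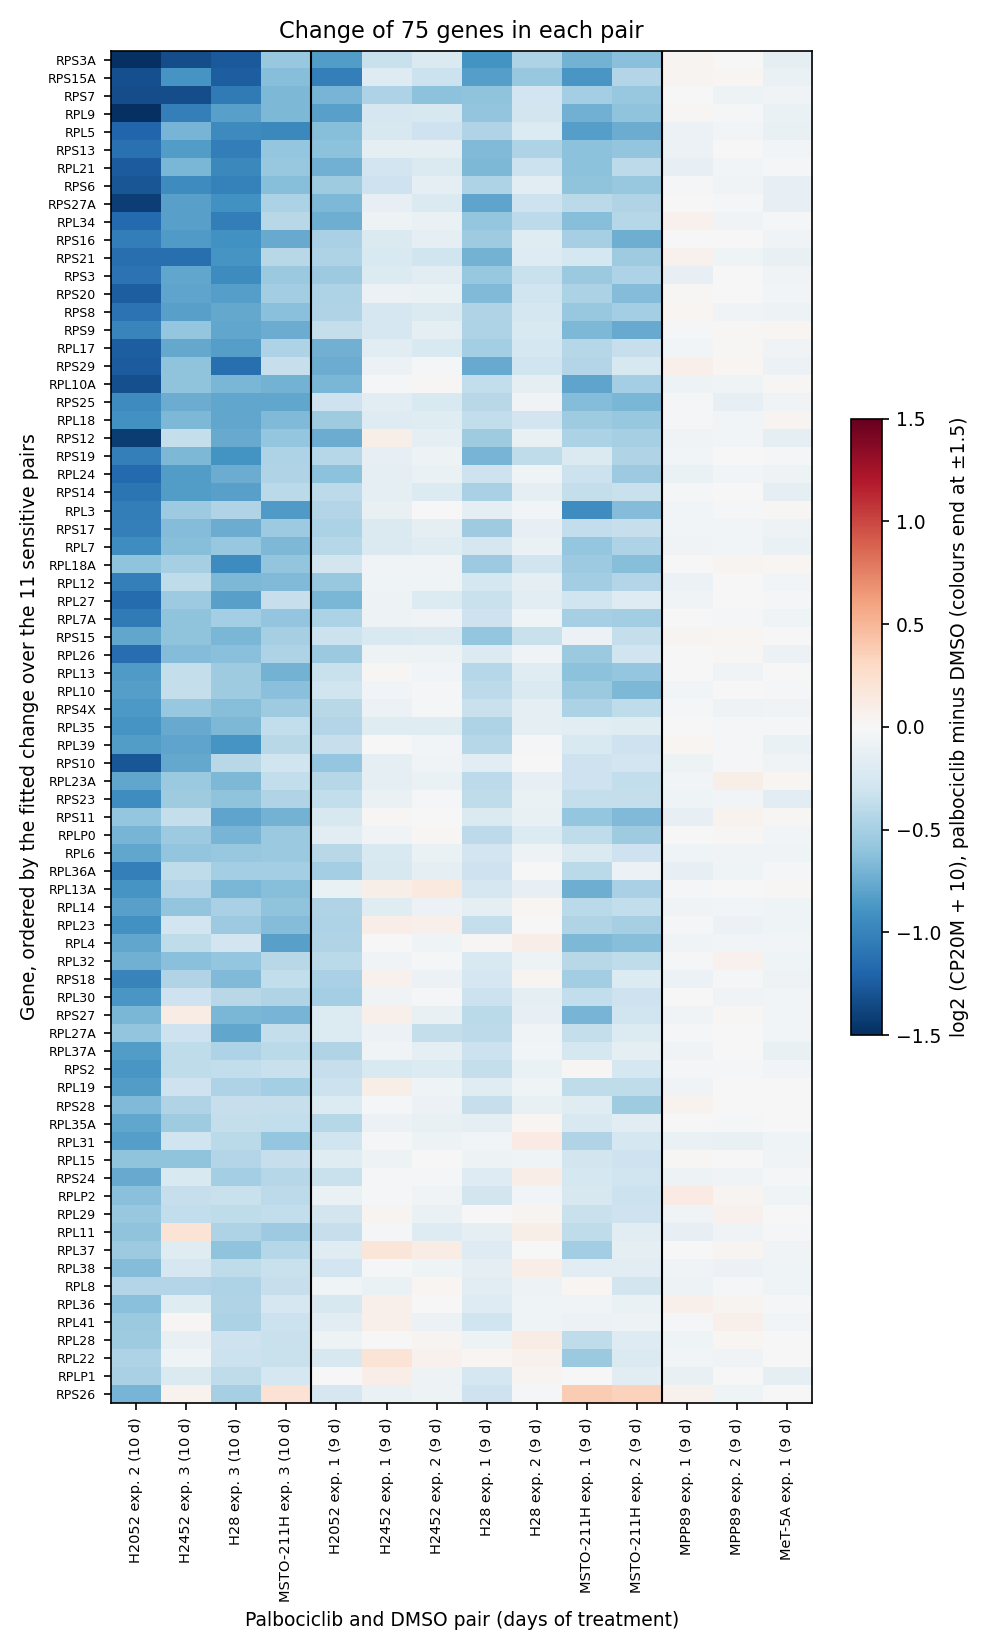
Heat map of the log2 difference between palbociclib and DMSO for 75 of the 76 genes (rows, ordered from RPS3A to RPS26) in the 14 pairs (columns: 4 sensitive pairs of 10 days, 7 sensitive pairs of 9 days, 3 resistant pairs); blue is lower with palbociclib, and colours end at ±1.5. The 10-day columns are the darkest, the resistant columns are nearly blank, and RPS26 is red in the 3 MSTO-211H pairs.

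The pairs also divided by the length of treatment, which was seen in the values before it was tested. The median of the members was -0.89, -0.56, -0.67 and -0.51 in the 10-day pairs of H2052, H2452, H28 and MSTO-211H, and between -0.43 and -0.09 in the 7 pairs of 9 days, so that the groups did not overlap. The mean of the pair medians was -0.66 ± 0.169 (SD, n = 4) at 10 days and -0.27 ± 0.162 (n = 7) at 9 days, with all genes at -0.15 and -0.09. The limma fit of the difference between 10 and 9 days called 0 members and 0 of all genes at the FDR; at an unadjusted p under 0.05, 70 members were lower in the 10-day experiments, against 5.56% of all genes. RPS7 had a difference of -0.54 ± 0.114 (unadjusted p = 0.000739, adjusted p = 0.546) and RPS3A of -0.61 ± 0.173 (unadjusted p = 0.0049). With the 9-day pairs alone, 44 members were called lower (19.0% of all genes). Day and experiment cannot be told apart, since each sensitive line has a single 10-day experiment, which is also the last in its numbering.

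In the resistant lines, the median change of the members was -0.03 on the log2 scale (3 pairs), with all genes at 0.01. By limma, 0 members and 0 of all genes were called at the FDR in either direction; at an unadjusted p under 0.05, 4 members were lower (2.45% of all genes), namely RPL31, RPS23, RPL5 and RPL24. With median-of-ratios scaling 19 were lower at that p (4.63% of all genes), 72 instead of 64 were below 0 and the median was -0.05, with 0 at the FDR. The lowest value was -0.09 ± 0.0291 for RPL31 and the highest 0.03 ± 0.0413 for RPLP2. The 95% intervals of all 76 members lay between -0.18 and 0.13, which bounds the change in these 3 pairs. RPS3A was at 4594 and 5401 CP20M with DMSO and 4720 and 5425 with palbociclib in MPP89, and at 5251 and 4761 in MeT-5A, where the untreated library had 8598. RPS7 was at 4102 and 4360 against 4133 and 4119 CP20M in MPP89, and at 5352 against 5156 in MeT-5A.

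The difference in response between the classes was tested as an interaction. All 3 resistant pairs were of 9 days, while 4 of the 11 sensitive pairs were of 10 days, and the fit had no term for day. Class and day are thus partly mixed in this difference. The mean of the pair medians was -0.268 in the sensitive pairs of 9 days and -0.0313 in the resistant pairs. All 76 members, and 64.0% of all genes, had a lower fitted response in the sensitive than in the resistant lines (median -0.39, against -0.14 over all genes). Of the members, 48 were lower at an unadjusted p under 0.05 (20.8% of all genes). At the FDR, 6 members passed, which is 7.89% of them and near the 7.81% of all genes: RPS15A, RPS7, RPS13, RPS9, RPL18 and RPS15. RPS15A had the smallest adjusted p, 0.0298, with a difference of -0.75 ± 0.2. Leaving out any of the 3 resistant pairs, MPP89 experiment 1 or 2 or MeT-5A experiment 1, left 0 members called, with 0.972%, 1.21% and 0.859% of all genes called lower, while the median difference of the members stayed between -0.39 and -0.38. Either rescaling left 0 members called too. With median-of-ratios scaling the median difference was -0.17 (0.06 over all genes), 65 members were below 0, and 6 were lower at an unadjusted p under 0.05 (8.77% of all genes). The count at the FDR was 16 without H2452 experiment 2 (21.1%, against 7.70% of all genes), 12 without H2452 experiment 1 or H28 experiment 2 (15.8%, against 7.06% and 9.08%), 3 without H2052 experiment 1 or H28 experiment 3, and 2 without experiment 3 of H2452 or MSTO-211H (6.29% to 7.03% of all genes in these 4 fits), so that the members' share lay above or below that of all genes by the pair left out.

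The washout libraries show whether RP transcripts returned within 48 h of removing palbociclib. In these 12 libraries the line was a block. At 10 days of palbociclib, 74 members were lower than with DMSO (24.3% of all genes called lower), with a median of -0.66. Washout against palbociclib gave 0 calls among the RP genes in either direction, and 0 at an unadjusted p under 0.05 (11.9% of all genes were higher and 1.15% lower at that p), with a median of -0.02 for the members and 0.09 for all genes. Over all genes, 277 were called higher (1.56%) and 0 lower. Rescaling the libraries by median-of-ratios moved the median of the members to -0.16 (all genes -0.04); 74 of 76 were then below 0 and 13 were lower at an unadjusted p under 0.05 (7.26% of all genes). With upper-quartile scaling 3 were (3.89%), and 0 passed the FDR under either. Washout against DMSO left 75 members lower (7.43% of all genes), with a median of -0.70 against -0.05 over all genes; RPS26 was the exception at -0.30 ± 0.158 (adjusted p = 0.236). Without H2052, the count for washout against DMSO was 28 (0.798% of all genes), with a median of -0.62. These comparisons share the palbociclib and DMSO libraries. No DMSO or palbociclib library was labelled with the further 48 h, so that washout and longer culture cannot be told apart.

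The values of single members show the same course. RPS3A was at 5609, 1540 and 1912 CP20M with DMSO, palbociclib and washout in H2052. In H2452 it was at 3904, 1550 and 2108, in H28 at 4798, 1996 and 1573, and in MSTO-211H at 8980, 6042 and 6014. RPL5 was at 6764, 2955 and 3112 CP20M in H2052, at 7763, 4786 and 4915 in H2452, at 9048, 4650 and 4439 in H28 and at 7941, 4067 and 4283 in MSTO-211H. Each washout value of these genes lay closer to palbociclib than to DMSO. RPS7 had the highest fitted change from palbociclib to washout, 0.18 ± 0.136 (adjusted p = 0.654), followed by RPS15A at 0.15 (adjusted p = 0.711), RPS21 at 0.12 (adjusted p = 0.783), RPS29 at 0.10 (adjusted p = 0.871) and RPS3A at 0.10 (adjusted p = 0.901). The lowest were RPL28 at -0.15 (adjusted p = 0.542), RPL37 at -0.14 (adjusted p = 0.547), RPS27 at -0.14 (adjusted p = 0.746), RPL11 at -0.13 (adjusted p = 0.753) and RPL29 at -0.13 (adjusted p = 0.53). The 95% intervals over the members reached from -0.44 to 0.54, the upper end belonging to RPS3A, an interval that includes a partial return of that gene.

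Genes of the cell cycle were followed in the same libraries, without a test of their difference from the RP genes. The 8 genes of a proliferation list had a median of -1.82, -3.15, -1.84 and -1.49 between palbociclib and DMSO at 10 days in H2052, H2452, H28 and MSTO-211H, and of 1.70, 2.77, 0.84 and 1.10 between washout and palbociclib. Of these 8, 5 were called higher in washout than with palbociclib (1.56% of all genes). None was called lower than DMSO in washout (7.43% of all genes). Their median between washout and DMSO was 0.26, -0.35, -1.0 and -0.51 in the same order, so that in H28 they were still well below DMSO. The medians of the RP genes between washout and palbociclib were 0.04, 0.03, -0.14 and 0.01 in the same order of lines. Mitochondrial transcripts made up 0.527% to 3.46% of the washout libraries, the highest value being that of H28, where 2 of 76 RP genes were above their palbociclib value; their part in this was not tested.

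**Figure D4:**
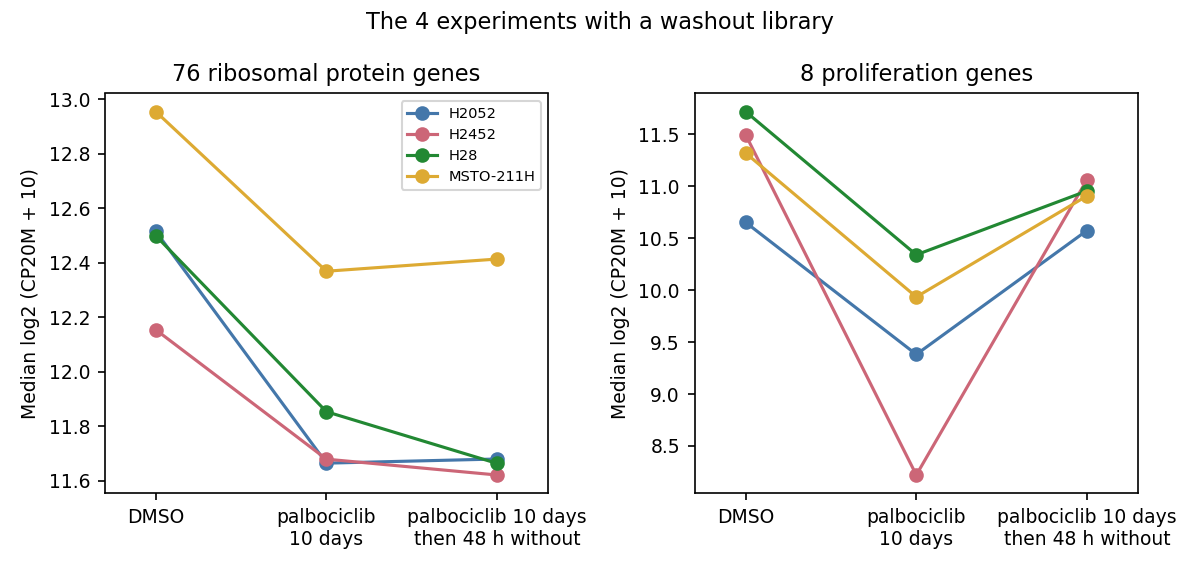
Median log2 (CP20M + 10) of the 76 ribosomal protein genes (left) and of 8 proliferation genes (right) in the 4 experiments with a washout library; each line joins the DMSO, palbociclib and washout libraries of a cell line, and the vertical axes differ. With the deposited scaling, the ribosomal protein genes stay near the palbociclib level after washout (changes of -0.14 to 0.04), whereas the proliferation genes rise by 0.84 to 2.77.

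Without palbociclib, the level of the RP genes also differed among the 6 lines. MSTO-211H had the highest mean in DMSO for 60 of the 76 members, while H2452 was lowest for 27 and MPP89 for 26. The same tally is not given for all genes. The DMSO libraries of MSTO-211H differed widely, with RP shares of 2.78%, 4.46% and 3.51%. The first of these lay below H2052 experiment 2 (2.83%) and H28 experiment 2 (2.84%). The F test of limma called 66 members (86.8%, against 95.6% of all genes), 65 of them with over 1.5-fold between the highest and lowest line (94.6% of all genes), so that the RP genes were not set apart from other genes by differing between lines. The widest range belonged to RPL8, a protein of the catalytic centre encoded on chromosome 8, at 4.18-fold. It was at 6072, 6748 and 7400 CP20M in H2452, at 20204 and 24488 in H2052, and at 20970, 36379 and 29173 in MSTO-211H. RPL9 (3.56-fold) and RPS3 (3.40-fold), a protein at the entry of the messenger, were lowest in MPP89. RPL18 and RPL13A followed, each highest in MSTO-211H and lowest in H2452. MeT-5A has 1 DMSO library, whose spread is taken from the other lines.

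Relative to the median of the RP genes of each library, 61 of 76 members still ranged over 1.5-fold among the lines. The same count is not given for all genes, and these ranges of line means were not tested. RPS3 was 1.62 above that median in H2052 and 0.09 in MPP89 on the log2 scale. RPL9 was 0.63 above it in H2452 and 0.90 below it in MPP89. RPS27 was 2.05 below it in MSTO-211H and 0.75 in MeT-5A, but its DMSO values of 1116, 3153 and 1938 CP20M in the 3 MSTO-211H experiments show that experiments of a line differ as well. RPS26 was 2.77 below the median in MSTO-211H and 1.48 in H2452. Its own level differed little, with line means from 10.17 in MSTO-211H to 10.55 in H2452 on the log2 scale (1.3-fold). Per kilobase of the annotated transcript, the mean level over lines had a median of 7070 CP20M and was highest for RPL7A at 17200. The lowest value, 772 for RPL37, is doubtful, since it rests on an annotated canonical transcript of unusual length (7573 nt).

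**Figure D5:**
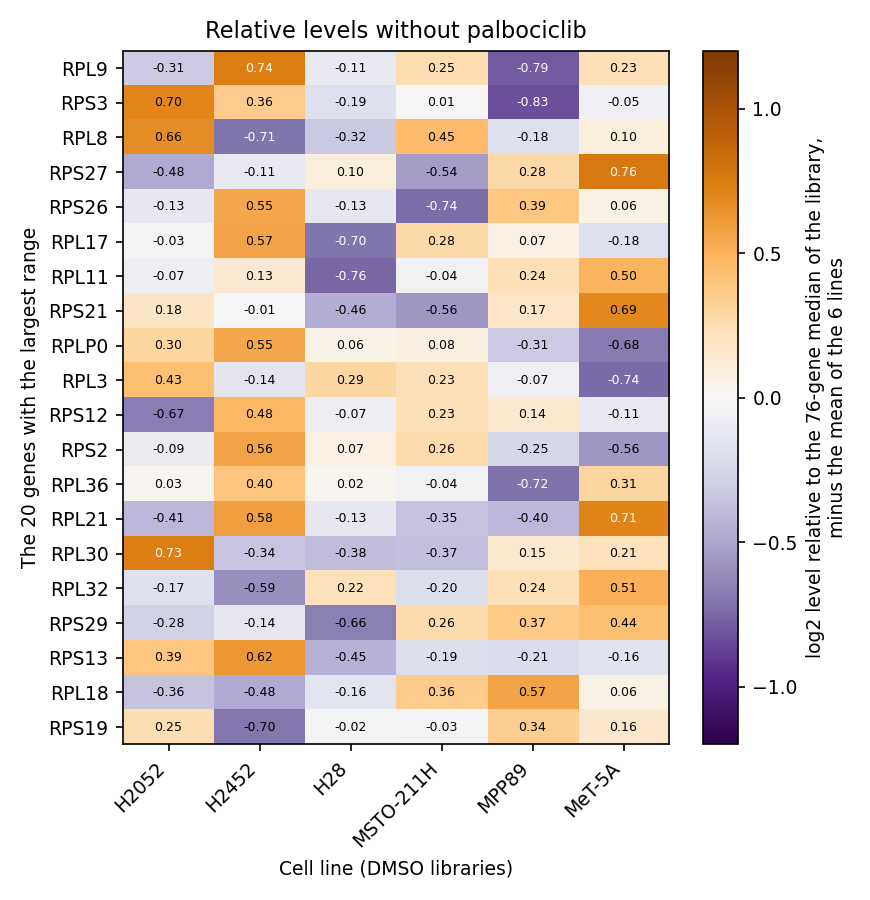
Log2 level in DMSO libraries relative to the median of the 76 genes in the library, shown as the deviation of each cell line (columns) from the mean of the 6 lines, for the 20 genes (rows) with the largest range. RPL9 runs from -0.79 in MPP89 to 0.74 in H2452, and RPS26 from -0.74 in MSTO-211H to 0.55 in H2452. The level of RPS26 itself differed only 1.3-fold among the lines.

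Genes that work with the ribosome were followed in the same fits. Among ribosomal components that the name rule leaves out, RPSA fell by 0.57 in the sensitive lines (adjusted p = 0.000242), RACK1 by 0.32 (adjusted p = 0.00303) and FAU by 0.31 (adjusted p = 0.00516); the calls of RACK1 and FAU were each lost under 3 of 27 alternatives. RPS27A, a member whose protein is made as a fusion with ubiquitin, fell by 0.60 (adjusted p = 0.0004). Of 6 paralogs tested, 4 fell (33.7% of all genes were called lower), led by RPL22L1 at -0.90 (adjusted p = 0.00137), the paralog of the little changed RPL22; RPL7L1 was at -0.35 (adjusted p = 0.000321) and RPL26L1 at -0.35 (adjusted p = 0.0109), calls lost under 1 and 5 of 27 alternatives. The call of RPL39L (-0.55, adjusted p = 0.0425) was lost under 14 of 26 alternatives, including those without any single pair of H2052 or H2452, with an adjusted p of up to 0.387 without the line H2452. RPL39L was lower in each pair of these lines, at -0.07, 0.59 and -0.16 in H28, and at 0 or 1 CP20M in MSTO-211H. RPL36AL (-0.09, adjusted p = 0.221) and RPS27L (-0.18, adjusted p = 0.0852) did not pass.

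Of 20 translation factors, 15 were called lower and none higher, with a median of -0.30; over all genes 33.7% were called lower and 14.6% higher, which is the background of the other lists too. EIF3E and EIF3L, subunits of an initiation factor, fell by 0.68 (adjusted p = 0.000288) and 0.56 (adjusted p = 0.000204), and the helicase EIF4A1 by 0.53 (adjusted p = 0.000107). The elongation factor EEF1A1 fell by 0.30 (adjusted p = 0.018), a call lost under 8 of 27 alternatives (adjusted p up to 0.432), while EEF2 was at -0.16 (adjusted p = 0.165) and the scaffold EIF4G1 at 0.13 (adjusted p = 0.0763). Of the 12 translation regulators, 4 were lower (33.3%, near the share over all genes) and 1 higher, and their median of -0.09 lay near that of all genes. The 78 genes of the mitochondrial ribosome had 60 called lower and 1 higher with a median of -0.38, and the 35 genes of ribosome biogenesis 26 lower and 2 higher with a median of -0.29. After washout against palbociclib, 0 genes of these lists passed at the FDR. In the resistant lines, likewise 0 of them passed, as for all genes.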

How the data were processed

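The deposited matrix holds 58302 genes in 33 libraries. Per the labels and the methods, the authors trimmed paired-end reads of directional libraries with Trimmomatic 0.36, mapped them to GRCh38 with STAR 2.5.3, counted reads per gene with HTSeq 0.9.1 and scaled each library to CP20M. The deposited numbers are thus scaled scores, raised to the next whole number. The authors tested with DESeq2; its count model was not applied here to scaled values.

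The analysis took log2(CP20M + 10) into limma 3.58.1 (trend) in R 4.3.3, on the 17803 genes that reached 100 CP20M in at least 1 library. P-values were adjusted over all of them. A gene was called at an FDR under 0.05; the fold change of 1.5 was a further rule. The block is the experiment, as in the authors' paired design, and deviations of DMSO and palbociclib libraries of an experiment correlated at r = 0.18 to 0.78 across genes. Washout libraries were tied to the 10-day experiments by their day. Fits were those of the sensitive pairs, each line, the resistant pairs, class and day interactions, the washout libraries and the DMSO libraries. On simulated data with 17803 genes, 100 genes were changed by 0.4 and 100 by 1 (log2), and all others were left unchanged. The change of 0.4 was recovered in 47% of genes over the sensitive pairs and 30% over the resistant pairs. It was recovered in 9% for washout against palbociclib and 0% for the class interaction. The change of 1 was recovered in 89%, 77%, 67% and 47%. In the data, 33.7% of all genes were called lower and 14.6% higher over the sensitive pairs. An FDR rule is stricter when few genes change, so that the simulated shares do not give the power of that fit. Replicate libraries had equal values at no more than 4.33% of tested genes.

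Named genes were the 5 lowest and 5 highest members over the sensitive pairs and for washout against palbociclib, the 6 members with the widest range among lines, 17 with known roles, and genes of related lists; 2 genes that these rules name are not reported here, and counts over lists include them. The members, lists and tests were chosen with earlier results of these data known; the day comparison was added after seeing the values. Gene positions and lengths are from GENCODE 44 and start sequences from RefSeq, both of GRCh38. Figures were drawn with matplotlib 3.10.9.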

Additional observations from a re-analysis of the deposited data

Results flagged for a closer look

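In groups of 4, single libraries lay far from the others, which chance alone gives in about 1 of 20 groups; 6 groups were looked at. The washout library of MSTO-211H had the highest share of RP genes, 2.40%, with the other 3 close together, and the same line stood apart among the 10-day palbociclib libraries at 2.42%. For washout against palbociclib, the member median of H28, -0.144, lay below those of the other 3 lines.

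The response to palbociclib differed between sensitive and resistant lines for 6 members by the interaction test of limma, a share of 7.89% against 7.81% of all genes, and for 0 without any of the 3 resistant pairs or with median-of-ratios or upper-quartile scaling. The difference, sensitive minus resistant, was -0.749 for RPS15A (adjusted p = 0.0298), -0.698 for RPS7 (adjusted p = 0.0344), -0.574 for RPS13 (adjusted p = 0.0491), -0.551 for RPS9 (adjusted p = 0.0398), -0.508 for RPL18 (adjusted p = 0.0358) and -0.453 for RPS15 (adjusted p = 0.0443). Only the sensitive lines have pairs of 10 days, and the fit had no term for day, so that class and day are partly mixed here. The response differed among the 4 sensitive lines for RPS26 (adjusted p = 0.0131 by the F test of limma), RPL4 (adjusted p = 0.0193) and RPS12 (adjusted p = 0.0339), which is 3.95% of the members against 37.1% of all genes.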

How the results depend on the processing

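Over the sensitive pairs, 73 members were called lower; the count was 43 with median-of-ratios scaling, 40 with line means as units (11.9% of all genes), 44 with the 9-day pairs alone and 62 to 75 when a pair or a line was left out. The count with over 1.5-fold was 9. It became 1 with median-of-ratios scaling, 3 with upper-quartile scaling, 1 with the 9-day pairs and 52 with the 10-day pairs. On leaving out, it was 4 to 19. Without the fold rule, 3052, 4261, 3376 and 2141 of 17803 genes were called lower with these scalings and pairs, in the same order. A share of all genes with the fold rule is not given for them, so that these counts of members have no background. Counts by line were the least stable, and those over all genes moved as well. In H2052, 2695 of 17803 genes were called lower in the main fit and 0 without trend. Without a filter 201 of 36901 were, and 5431 of 14115 with the filter within the fit. That filter gave 4360 of 13828 in H2452, 3060 of 14073 in H28 and 2814 of 14403 in MSTO-211H. With no replicate block, 2553 were called lower in H2052, 1314 in H28 and 1463 in MSTO-211H. A pseudocount of 1 gave 790 in H2052, 3580 in H2452 and 1716 in H28, and that of 50 gave 3384 in H2052. Without a filter, 2894 of 37903 were called in H2452, 1295 of 38483 in H28 and 501 of 37941 in MSTO-211H. Median-of-ratios scaling gave 710 in H2052, 2031 in H2452 and 686 in MSTO-211H. Upper-quartile scaling gave 1130 in H2052 and 2395 in H2452. Without trend, 3654 were called lower in H2452 and 1715 in H28. Scaling to the library total without the members gave 3137 in H2052, and the shares for the single fit stand with the results by line. The counts of members were as follows. For H2052 (10) they were 28 with no replicate block, 1 and 29 with pseudocounts of 1 and 50, 0 without a filter, 73 with the filter within the fit, 1 with median-of-ratios or upper-quartile scaling, 16 with the library total without the members, 0 without trend, 70 with all lines in a single fit and 8 to 69 on leaving out a pair in that fit. For H2452 (1) they were 0 with a pseudocount of 1, no filter, either scaling or no trend, 19 with the filter within the fit, 16 in the single fit and 0 on leaving out. For H28 (8) they were 0 with no replicate block, 4 with a pseudocount of 1, 5 without a filter, 37 with the filter within the fit, 3 without trend, 44 in the single fit and 0 on leaving out. For MSTO-211H (34) they were 0 with no replicate block, 5 without a filter, 2 with median-of-ratios scaling, 60 in the single fit and 0 on leaving out. The class difference (6 members) gave 1 with no replicate block, 0 without a filter or with either scaling, 2 without trend and 0 to 16 on leaving out. Over all genes, that test called 1103 lower with no replicate block, 1261 without trend and 925 of 47089 without a filter. It called 513 with median-of-ratios and 803 with upper-quartile scaling. On leaving out, 0.859% to 9.13% of all genes were called lower. The F test among sensitive lines (3) gave 0 with no replicate block, 5 with the filter within the fit, 7 with upper-quartile scaling and 1 to 12 on leaving out. Its share over all genes was 25.8% to 38.7% on leaving out. For the other settings that share is not given, so that these counts of members have no background. Washout against DMSO (75) gave 28 to 70 on leaving out a line, and washout against palbociclib 0 in both directions. Over all genes, washout against DMSO called 142 to 656 lower on leaving out a line. Levels among lines (66) gave 56 to 72, for which the calls over all genes are not given.

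Median-of-ratios scaling moved medians of the members to -0.331 in H2052, -0.0452 in H2452, -0.241 in H28, -0.255 in MSTO-211H, -0.0509 in MPP89, -0.0533 in the resistant lines, -0.168 for the class difference, -0.418 for palbociclib against DMSO at 10 days and -0.163 for washout against palbociclib. On leaving out pairs or lines, the median ranged from -0.485 to -0.352 over the sensitive pairs, -0.892 to -0.427 in H2052, -0.326 to -0.0839 in H2452, -0.493 to -0.229 in H28, -0.461 to -0.393 in MSTO-211H, -0.0323 to -0.0158 in MPP89, -0.0365 to -0.025 in the resistant lines, -0.423 to -0.339 for the class difference, -0.694 to -0.573 at 10 days, -0.457 to -0.327 for the day difference, -0.0438 to 0.0173 for washout against palbociclib and -0.752 to -0.617 for washout against DMSO. The mean share ranged from 2.52% to 2.78% (DMSO) and 1.91% to 2.09% (palbociclib).

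Signs turned over the sensitive pairs with median-of-ratios scaling for RPL41 (0.00942), RPL28 (0.0263), RPL22 (0.0283), RPLP1 (0.0419), RPS26 (0.108), PABPC1 (0.0393), EIF4A2 (0.00924), RPL36AL (0.101), EEF2 (0.0327), RPS27L (0.0201) and EEF1G (0.0375), and with upper-quartile scaling for RPS26 (0.0289) and RPL36AL (0.022). For washout against palbociclib they turned with median-of-ratios scaling for RPS3A (-0.0394), RPS29 (-0.0383) and RPS21 (-0.0189), and for RPS3A without H2452 (-0.0127; 0.248 without H28). The cause of these changes was not tested. The splits by day were added after seeing the data. Depth limits the RP genes little, since each is far above the value of a read.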
